A study of Mus musculus with 30 samples.

Results

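Cells of the mouse fibroblast line NIH3T3-CG that had received a Snai1 plasmid were compared directly with cells that had received a Prrx1 plasmid. The comparison used the 3 Snai1 and the 3 Prrx1 transfection libraries, 6 of the 30 libraries in the series, chosen by their labels alone. The 3 libraries of cells given a control plasmid, which belong to both transfections, stayed out of the reported contrast and are quoted as a background level. They enter a test only in alternatives that are named as such. All 9 samples share the same line, described as embryonic fibroblasts, and the same route of delivery, transfection, so the groups differ by label in the plasmid alone. The labels give neither the time after transfection, nor the promoter on the plasmids, nor the meaning of the suffix CG, and they do not say whether a Hedgehog ligand was present. Nor do they say whether replicates were separate cultures. Each p-value is therefore about library-to-library spread, part of which may be technical.

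The study asked how fluctuating transcription factor levels relate to cell-to-cell differences in the Hedgehog response, and raised single factors to follow their effect on RNA. Bulk mRNA sequencing was carried out on total RNA, so fewer cells with a transcript and less transcript per cell cannot be told apart.

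Snai1 encodes a zinc finger repressor that binds E-box sequences and is best known for switching off the E-cadherin gene during the epithelial to mesenchymal transition (EMT). Prrx1 encodes a paired-related homeobox factor of limb and craniofacial mesenchyme, which is also an inducer of EMT. Fibroblasts are themselves mesenchymal cells and lack most epithelial genes.

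Library totals were 18169803 to 19976799 estimated counts in the Snai1 group, 18020141 to 20638309 in the Prrx1 group and 19574031 to 20961571 in the control group. The fibroblast label was checked against marker genes on the TPM scale (a level per transcript length, scaled to the same total in each library). The 8 fibroblast markers summed to 6425 to 6826 TPM with Snai1, 5711 to 6502 TPM with Prrx1 and 6058 to 7003 TPM with the control plasmid. Vim, a mesenchymal filament gene, stood at 2413 TPM or more in all 9 libraries. The epithelial gene Cdh1 reached at most 0.276 TPM, and the leukocyte gene Ptprc at most 0.192 TPM. A first principal component with 33.9% of the variance separated the 3 Snai1 from the 3 Prrx1 libraries. Control library 1 stood apart from the other controls. A chi-square comparison of counts gave 25.6 and 31.4 per gene between it and the others and 4.11 between the other two, against 3.44 to 3.82 within the Snai1 group and 5.31 to 11.7 within the Prrx1 group. Positions relative to the controls are given with and without that library.

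Between the groups, 74 of 12824 tested genes (0.577%) passed an adjusted p of 0.05 in edgeR's quasi-likelihood test with Benjamini-Hochberg adjustment. With Snai1, 20 genes were higher (0.156% of those tested) and 54 were lower (0.421%). The lower genes carried the large differences. Of the 38 called genes that differed by over 2-fold, 34 were lower with Snai1 and 4 were higher, and Snai1 and Prrx1 themselves are among them. The median log2 fold change (Snai1 over Prrx1) was −1.86 for the lower genes, 0.29 for the higher genes and 0.002 for all genes tested. The median of the lower genes is unaffected by setting those at 0 counts with Snai1 to their bound. Most of the lower genes were scarce, since their median level in the Prrx1 group was 3.80 CPM (counts scaled to the library size), whereas the higher genes had a median of 95.4 CPM in the Snai1 group. Without the third Snai1 library the count fell to 44 genes (5 higher, 39 lower). With DESeq2 it was 87 genes (33 higher, 54 lower), and limma on log2(TPM + 1) called 5 genes (3 higher, 2 lower).

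**Figure D1:**
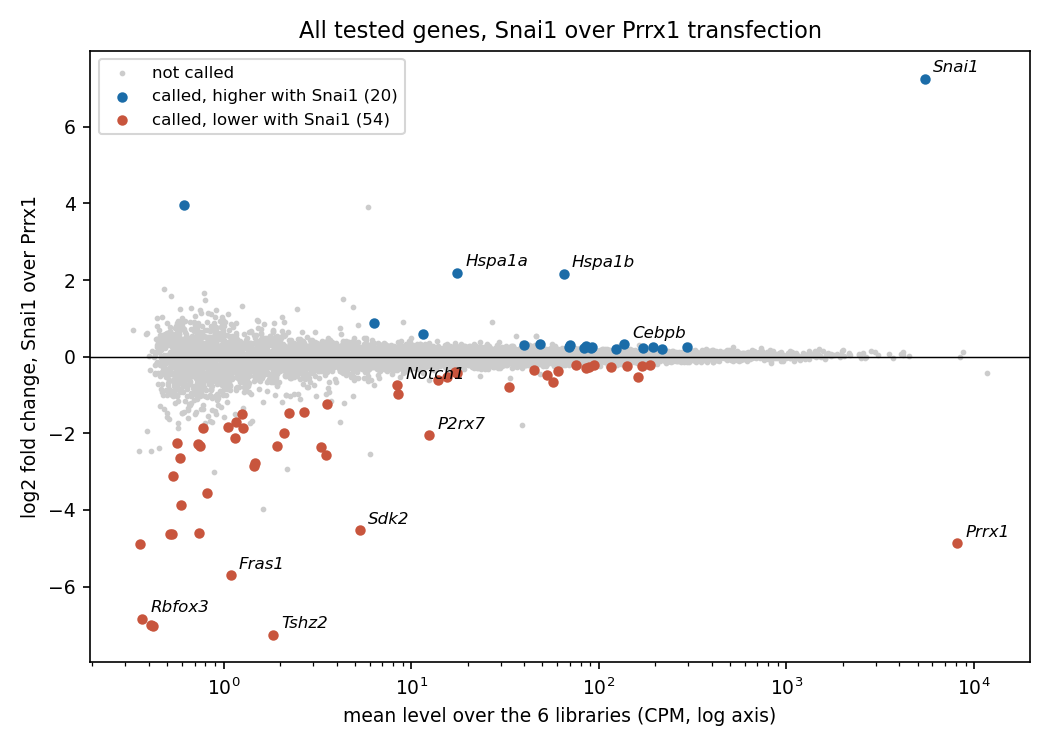
Each point is 1 of 12824 tested genes, with the mean level over the 6 libraries (CPM, log axis) on the horizontal axis and the log2 fold change, Snai1 over Prrx1, on the vertical axis. Blue points are the 20 genes called higher with Snai1 and red points the 54 called lower. The red points reach far down at low levels, where the fitted value of a gene with almost no counts depends on the prior count, and the blue points other than Snai1, Hspa1a, Hspa1b and 1 scarce pseudogene lie under 1.

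The called genes were set beside the control libraries. For 46 of the 54 genes lower with Snai1, all 3 control libraries lay below all 3 Prrx1 libraries, a position held by 9.9% of all tested genes. The control and Snai1 libraries overlapped for 41 of the 54, as they did for 79.4% of all tested genes. For 12 of the 20 genes higher with Snai1, all 3 controls lay below all 3 Snai1 libraries (10.3% of all tested genes), and for 11 of the 20 the controls overlapped the Prrx1 libraries (80.8% of all tested genes). The calls themselves used the Snai1 and Prrx1 values, so these counts describe the called genes and are no separate test. Without control library 1, a check chosen after seeing the data, the controls lay below the Prrx1 libraries for 47 of the 54 (24% of all tested genes) and overlapped the Snai1 libraries for 31 (47%). On the higher side they then lay below the Snai1 libraries for 14 of the 20 (26.9%) and overlapped the Prrx1 libraries for 4 (53.5%). With the controls added to the fit, 33 genes were called between Snai1 and Prrx1, and 88 with control libraries 2 and 3 alone added.

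The delivered genes matched the labels. Snai1 (chromosome 2, 167538195 to 167542814, plus strand, mm10) stood at 10672, 10425 and 11523 CPM in the Snai1 libraries, against 75.8, 80.7 and 56.4 CPM in the Prrx1 libraries and 88.8 ± 3.43 CPM in the controls (SD, n = 3). Its log2 fold change was 7.26 ± 0.184 (SE), or 153-fold (adjusted p = 5.49e-04). Prrx1 (chromosome 1, 163245119 to 163313710, minus strand) stood at 547, 541 and 527 CPM in the Snai1 libraries, against 14269, 14198 and 18797 CPM in the Prrx1 libraries and 572 ± 86.1 CPM in the controls. This is a log2 fold change of −4.87 ± 0.150, or 29.2-fold lower with Snai1 (adjusted p = 8.19e-04). Neither group overlapped the other for either gene. Prrx1 was also present with the control plasmid, at 473 to 626 CPM, and its level with Snai1 lay within that range.

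The difference in Prrx1 sat on particular transcripts. Prrx1-205 averaged 70.7 ± 5.92 TPM with Snai1 and 7636 ± 1383 TPM with Prrx1, and Prrx1-202 averaged 38.2 ± 3.10 TPM with Snai1 and 2633 ± 399 TPM with Prrx1 (SD, n = 3). Prrx1-201 went the other way, at 81.2, 75.6 and 76.1 TPM in the Snai1 libraries, against 40.0, 46.2 and 47.2 TPM in the Prrx1 libraries. The controls had 58.7, 103 and 102 TPM of Prrx1-201 and did not overlap the Prrx1 libraries. These are estimates by the authors' software for transcripts that share much of their sequence, and no test was run on single transcripts.

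The authors' reference also held GFP and mScarlet, whose role the labels do not state. mScarlet stood at 9923, 9554 and 10567 CPM in the Snai1 libraries, against 12055, 12004 and 16214 CPM in the Prrx1 libraries and 10760 ± 2236 CPM in the controls. The groups did not overlap, but the log2 fold change of −0.42 ± 0.146 did not pass (adjusted p = 0.415). The third Prrx1 library was highest for both Prrx1 and mScarlet. GFP averaged 261.2 ± 9.78 CPM with Snai1 and 285.5 ± 10.6 CPM with Prrx1 (adjusted p = 0.249), against 195.8 ± 18.9 CPM with the control plasmid. Whether the amount of delivered plasmid takes part in any difference below was not tested.

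**Figure D2:**
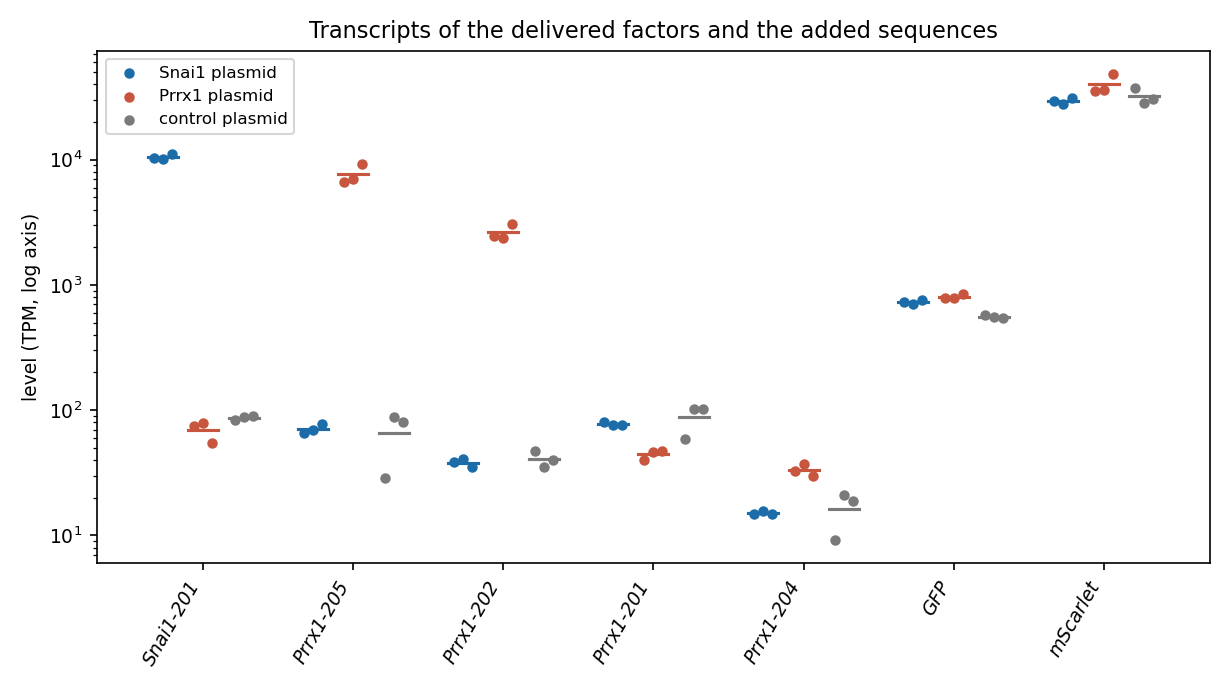
Levels (TPM, log axis) of the Snai1 transcript, 4 Prrx1 transcripts and the added sequences GFP and mScarlet in each of 9 libraries. Points are libraries and bars are group means. Snai1-201 is high with the Snai1 plasmid alone, Prrx1-205 and Prrx1-202 with the Prrx1 plasmid alone, and Prrx1-201 is lowest with the Prrx1 plasmid.

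Apart from Snai1 itself, the clearest genes higher with Snai1 were Hspa1a and Hspa1b, neighbouring genes for the stress-inducible Hsp70 chaperone. Hspa1b (chromosome 17, 34956436 to 34959238, minus strand) stood at 104, 105 and 109 CPM in the Snai1 libraries, against 23.6, 20.1 and 27.4 CPM in the Prrx1 libraries and 24.6, 19.4 and 18.1 CPM in the controls. Hspa1a (chromosome 17, 34969190 to 34972156, minus strand) stood at 30.0, 30.1 and 26.4 CPM in the Snai1 libraries, against 6.12, 6.45 and 6.30 CPM in the Prrx1 libraries and 5.11, 3.99 and 4.69 CPM in the controls. For both genes the 3 Snai1 libraries stood apart. The Prrx1 libraries overlapped the controls for Hspa1b and lay a little above all 3 controls for Hspa1a. The log2 fold changes were 2.17 ± 0.0813 for Hspa1b (adjusted p = 5.47e-10) and 2.20 ± 0.0979 for Hspa1a (adjusted p = 2.45e-11). The genes are near-identical copies. Only 31.9% of the 31-mers of Hspa1b and 29.9% of those of Hspa1a occur in no other gene, so the split of reads between them is uncertain. Their sum does not depend on that split, and it was 135.0 ± 1.05 CPM with Snai1 and 30.0 ± 3.60 CPM with Prrx1, a ratio of 4.50, against 25.3 ± 3.83 CPM with the control plasmid (SD, n = 3).

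The promoters of the pair are shown because both genes were higher with Snai1 together. Each window is the 250 bases before the RefSeq start of the gene (GRCm38.p6, the assembly behind mm10), written 5′ to 3′ on the strand of the gene. Capitals mark the match to GAANNTTC, an inverted pair of heat shock units, the building block of the element that heat shock factor binds.
Hspa1a, chr17:34972157-34972406 (minus strand): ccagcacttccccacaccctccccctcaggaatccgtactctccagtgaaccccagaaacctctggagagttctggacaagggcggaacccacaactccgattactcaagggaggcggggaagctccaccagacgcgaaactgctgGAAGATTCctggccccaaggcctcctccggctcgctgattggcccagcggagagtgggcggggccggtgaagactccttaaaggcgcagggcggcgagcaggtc
Hspa1b, chr17:34959239-34959488 (minus strand): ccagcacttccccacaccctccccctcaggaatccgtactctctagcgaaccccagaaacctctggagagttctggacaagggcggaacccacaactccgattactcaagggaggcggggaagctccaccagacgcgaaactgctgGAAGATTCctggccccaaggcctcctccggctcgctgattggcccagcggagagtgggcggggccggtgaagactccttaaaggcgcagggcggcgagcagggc

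The windows are identical at 247 of 250 bases (98.8%), and each holds 1 such match and neither of the other motifs searched, CAGGTG and TAATTA. All 3 motifs were searched on both strands and counted independently of each other, overlaps allowed. GAANNTTC occurred in the windows of 4 of the 17 genes higher with Snai1 that have a RefSeq promoter (Hspa1a, Hspa1b, Ier5l and Ppp1r10) and 2 of the 39 lower ones, against 7.73% of 27025 genes. CAGGTG, an E-box bound by Snail factors, occurred in 6 of the 17 and 8 of the 39, against 19.43%. The 6 were Dnajb1, Pakap, Rpl39, Scand1, Scarf2 and the delivered gene Snai1 itself. These shares rest on few genes and were not tested. TAATTA, a homeodomain core, occurred in 0 of the 17 and in 1 of the 39 (Prrx1 itself), against 5.65%. A match describes the letters of the window, not binding.

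The rest of the chaperone list did not pass the test. Of 24 tested heat shock genes, 3 were higher with Snai1 than with Prrx1 (0.156% of all tested genes were called higher). The other 21 did not pass, and the median of the list was 0.012 against 0.002 for all genes. The third was Dnajb1, the Hsp40 partner of Hsp70, with 77.2, 76.3 and 78.5 CPM in the Snai1 libraries, against 70.4, 57.5 and 61.6 CPM in the Prrx1 libraries and 55.8 ± 1.03 CPM in the controls. Its log2 fold change of 0.30 ± 0.0629 was small (adjusted p = 0.0349), and the call was lost without any of the 3 Snai1 libraries, and without Prrx1 library 2 or 3, at adjusted p of 0.0819 to 0.201. Hsp90aa1, a cytosolic Hsp90 gene, had a log2 fold change of −0.035 (48.5% unique 31-mers), Hspa8, the constitutive Hsp70 gene, 0.015 (59.5%), and Hsph1, an Hsp110 gene, 0.133. Hsf1, the heat shock factor itself, stood at 87.8 CPM with Snai1 and 84.2 CPM with Prrx1 on average (log2 fold change 0.061, adjusted p = 0.712).

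The other genes higher with Snai1 differed by under 2-fold, apart from the ribosomal protein pseudogene Rpl19-ps11. Arrdc4, an arrestin-domain gene, stood at 14.8, 12.7 and 14.2 CPM with Snai1, against 7.98, 9.17 and 10.4 CPM with Prrx1 and 10.04 ± 1.51 CPM with the control plasmid (log2 fold change 0.60 ± 0.116, adjusted p = 0.0153). Ier5l, a relative of the immediate early gene Ier5, stood at 53.6, 54.1 and 55.1 CPM with Snai1, against 48.4, 41.7 and 38.8 CPM with Prrx1 (0.34 ± 0.0708, adjusted p = 0.0281). Cebpb, a leucine zipper factor of inflammation and fat cell differentiation, averaged 150.9 ± 7.74 CPM with Snai1 and 121.0 ± 10.6 CPM with Prrx1 (0.32 ± 0.0583, adjusted p = 0.0122). The groups stood apart in these 3 genes, as the rule for naming required. The margin was small beside that of Hspa1b. Cebpb lies on chromosome 2 at 167688915 to 167690418, and 80.6% of its 31-mers are unique. The calls of Arrdc4 and Cebpb were lost without Snai1 library 1 or 3 or Prrx1 library 1, and that of Ier5l without any 1 library other than Prrx1 library 1.

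Myc, a growth-promoting transcription factor, averaged 184.8 ± 2.35 CPM with Snai1 and 157.5 ± 12.1 CPM with Prrx1, with 195.7 ± 6.34 CPM in the controls, so the Prrx1 libraries were the low ones (log2 fold change 0.23 ± 0.0511, adjusted p = 0.0417). The same order held for Rpl39, a large-subunit ribosomal protein gene, with 319.0 ± 10.5 CPM with Snai1, 270.0 ± 20.1 CPM with Prrx1 and 369.3 ± 61.5 CPM with the control plasmid (0.24 ± 0.0507, adjusted p = 0.0294). Ppp1r10, a nuclear regulator of protein phosphatase 1, averaged 99.6 CPM with Snai1 and 83.5 CPM with Prrx1 (0.25 ± 0.0505, adjusted p = 0.0177). Each of these 3 genes lost its call without Snai1 library 2, and likewise without Snai1 library 3. Myc also lost it without Snai1 library 1 or Prrx1 library 1 or 3, and Rpl39 without Snai1 library 1 or Prrx1 library 2 or 3. Snrpg, which encodes a spliceosomal Sm protein (0.28, 87.4% unique 31-mers), Pgls, a pentose phosphate enzyme gene (0.26, 80.5%), and Scand1, a SCAN-domain gene (0.30, 65.8%), were higher by small amounts at uncertain read assignment. Pakap, a joined locus of Palm2 and Akap2, had a log2 fold change of 0.89, but 2.2% of its 31-mers are unique and its controls ran from 0.626 to 13.5 CPM.

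Read assignment bears on the higher genes more than on the lower ones. Under 90% of 31-mers were unique in 10 of the 20 higher genes (50%) and 6 of the 54 lower genes (11.1%), against 21.7% of all genes tested. In the 6 fits that each left out 1 library, 32 of the 74 genes were called every time, 28 of them lower with Snai1, and the 4 higher ones were Snai1, Hspa1a, Hspa1b and Rpl19-ps11. Rpl19-ps11, the highest ratio after Snai1, had 25, 16 and 26 counts in the Snai1 libraries, against 2, 2 and 0 in the Prrx1 libraries and 8, 5 and 20 in the controls, with 3.2% unique 31-mers. When only genes with at least 90% unique 31-mers were tested, a check chosen after seeing the data, 14 genes were higher and 55 lower.

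**Figure D3:**
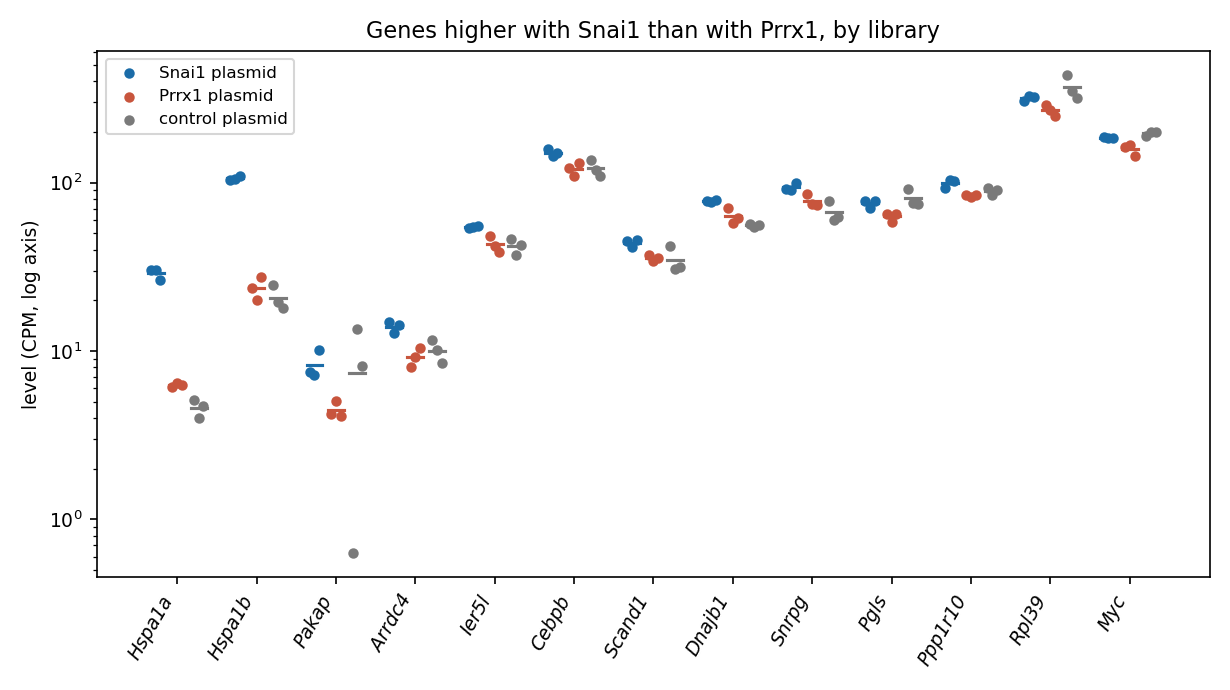
Levels (CPM, log axis) of 13 named genes called higher with Snai1, by library, with Snai1 itself left out. Points are libraries and bars group means. Hspa1a and Hspa1b stand far above the Prrx1 and control libraries, and the other genes differ by small margins.

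On the other side, after Prrx1 itself, the largest difference among named genes of at least 5 CPM was that of Sdk2 (chromosome 11, 113776374 to 114067046, minus strand), which encodes the adhesion protein sidekick 2, known for matching synaptic partners in the retina. It stood at 0.403, 0.223 and 0.671 CPM in the Snai1 libraries, against 9.21, 10.3 and 10.97 CPM in the Prrx1 libraries and 0.418, 0.427 and 0.622 CPM in the controls. Sdk2 was thus under 1 CPM in every Snai1 and control library and near 10 CPM in every Prrx1 library. Its log2 fold change was −4.52 ± 0.244, or 23.0-fold lower with Snai1 (adjusted p = 4.41e-10). On the TPM scale its longest transcript, Sdk2-201, had 0.029 to 0.071 with Snai1 and 1.05 to 1.22 with Prrx1. Of 33 tested synaptic adhesion and axon guidance genes, Sdk2 was called lower with Snai1 than with Prrx1 and the other 32 did not pass (median 0.036). For comparison, 0.421% of all tested genes were called lower, and Sdk2 reached the filter only through its Prrx1 counts.

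Tshz2 (chromosome 2, 169633013 to 170071816, plus strand), a teashirt family zinc finger factor, was nearer still to an on or off pattern. It had 0, 1 and 0 counts in the Snai1 libraries, against 63, 74 and 76 in the Prrx1 libraries and 1, 3 and 2 in the controls. The ratio of the summed counts scaled by depth, here Prrx1 over Snai1, was 209.6 with a 95% counting interval of 37.2 to 8317, which covers counting error only (adjusted p = 8.03e-08). Fras1, an extracellular protein of basement membranes whose loss causes Fraser syndrome, had 1, 0 and 1 counts with Snai1, against 29, 53 and 44 with Prrx1 and 4, 3 and 0 in the controls. Its Prrx1 over Snai1 ratio was 62.0 (16.8 to 517.5, adjusted p = 9.09e-06). Genes under 5 CPM, including these, fall outside the rule for named genes and were chosen after their values were seen. Tshz2 and Fras1 reached the filter through the Prrx1 group alone, which fixed their direction.

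The promoter windows of Sdk2 and Tshz2 are shown in the same form because both genes were under 1 CPM in every Snai1 and control library. Neither holds any of the 3 motifs, so no base is in capitals. They differ in base composition, with 78.8% G and C in the Sdk2 window and 48.8% in that of Tshz2.
Sdk2, chr11:114067030-114067279 (minus strand): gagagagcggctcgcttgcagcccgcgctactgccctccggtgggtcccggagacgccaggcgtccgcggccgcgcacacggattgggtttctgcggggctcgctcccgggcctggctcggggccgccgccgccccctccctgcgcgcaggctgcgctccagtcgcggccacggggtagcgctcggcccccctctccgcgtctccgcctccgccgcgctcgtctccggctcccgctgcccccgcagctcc
Tshz2, chr2:169632259-169632508 (plus strand): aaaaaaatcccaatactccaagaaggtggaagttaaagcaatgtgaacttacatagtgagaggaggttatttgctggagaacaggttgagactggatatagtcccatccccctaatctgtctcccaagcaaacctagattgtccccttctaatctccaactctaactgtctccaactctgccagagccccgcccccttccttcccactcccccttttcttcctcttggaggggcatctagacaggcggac

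In the list of neuronal genes, Rbfox3 and Vgf were lower with Snai1. Rbfox3, the splicing factor gene behind the neuronal marker NeuN, had 0 counts in all 3 Snai1 libraries and all 3 controls, against 11, 16 and 16 in the Prrx1 libraries. It was at least 14.1-fold lower with Snai1, taken against 3 counts over the group (adjusted p = 0.00149). Vgf, a neuropeptide precursor gene, stood at 4.89, 5.56 and 6.76 CPM with Snai1, against 10.8, 9.41 and 13.6 CPM with Prrx1 and 4.43 ± 0.511 CPM with the control plasmid (log2 fold change −0.97 ± 0.154, adjusted p = 0.00219). Both genes were higher in every Prrx1 library than in any Snai1 or control library. They are the 2 of 10 tested neuronal genes called lower with Snai1 than with Prrx1 (0.421% of all tested genes were called lower). The other 8 did not pass. Rbfox3 reached the filter through the Prrx1 group alone, which fixed its direction, so the 2 of 10 is no test of the list. The remaining 25 of the 35 neuronal genes did not reach the filter, and the summed level of all 35 was 109.9 to 123.9 TPM with Snai1, 108.1 to 140.9 TPM with Prrx1 and 107.4 to 136.3 TPM with the control plasmid, and these ranges overlap. Tubb3, an early neuronal tubulin gene, had 8.83 to 12.5 TPM with Snai1 and 10.2 to 13.2 TPM with Prrx1.

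Further scarce genes were lower with Snai1. Reln, the secreted guidance protein reelin of the cortex, had 0, 0 and 2 counts with Snai1, against 15, 23 and 21 with Prrx1, a Prrx1 over Snai1 ratio of 29.0 (7.69 to 245.3, adjusted p = 0.00127). Sult4a1, a brain sulfotransferase gene, and Pamr1, a secreted peptidase-domain gene, had 0 counts with Snai1 and summed to 49 and 48 counts with Prrx1. They were at least 16.1-fold and at least 15.7-fold lower with Snai1. Clstn3, the synaptic adhesion protein calsyntenin 3, had 10, 6 and 5 counts with Snai1, against 33, 74 and 44 with Prrx1 and 7, 8 and 8 in the controls (log2 fold change −2.79 ± 0.387, adjusted p = 5.05e-04). Slc8a2, a sodium and calcium exchanger of brain, had 20, 14 and 14 counts with Snai1, against 59, 60 and 75 with Prrx1 (−1.99 ± 0.277, adjusted p = 5.05e-04). None of these groups overlapped, but the calls were made on these same values, so this is no separate support. Reln, Sult4a1, Pamr1 and Clstn3 reached the filter through the Prrx1 group alone, which fixed their direction.

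Signalling genes were also among those lower with Snai1. P2rx7 (chromosome 5, 122643911 to 122691432, plus strand), a cation channel opened by extracellular ATP, stood at 4.29, 5.95 and 4.49 CPM with Snai1, against 16.1, 19.6 and 24.6 CPM with Prrx1 and 5.90, 4.604 and 5.02 CPM with the control plasmid. It was 4.11-fold lower with Snai1 (log2 fold change −2.04 ± 0.167, adjusted p = 1.71e-05), and the Snai1 and control libraries overlapped. It was the 1 called gene of 7 tested purinergic receptor genes, where 0.577% of all tested genes were called. P2rx4, its close relative and neighbour, averaged 19.8 CPM in both groups (log2 fold change −0.005).

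Notch1, a receptor for contact-dependent signals, stood at 6.60, 7.12 and 5.16 CPM with Snai1, against 10.2, 11.4 and 10.2 CPM with Prrx1 and 4.39 ± 0.786 CPM with the control plasmid (log2 fold change −0.75 ± 0.135, adjusted p = 0.00751). Without the third Snai1 library the adjusted p was 0.0772. It was the 1 called gene of 12 in the Notch list, where 0.577% of all tested genes were called. Notch2, another receptor of the family, had a log2 fold change of 0.009, and the target gene Hes1 averaged 18.6 CPM with Snai1 and 15.3 CPM with Prrx1 (0.29, adjusted p = 0.408).

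Arc, an immediate early gene of synaptic plasticity, had 2.42, 2.003 and 1.91 CPM with Snai1, against 4.55, 4.90 and 5.59 CPM with Prrx1 and 2.93 ± 0.0844 CPM with the control plasmid (log2 fold change −1.24 ± 0.202, adjusted p = 0.00242). In the list of 33 tested immediate early genes, Arc was lower with Snai1 than with Prrx1, Myc was higher and 31 did not pass. For comparison, 0.577% of all tested genes were called in either direction. Fos averaged 3.70 CPM with Snai1 and 4.95 CPM with Prrx1 (adjusted p = 0.537), and Egr1 averaged 230.9 CPM with Snai1 and 254.2 CPM with Prrx1 (adjusted p = 0.908). Gem, a small GTPase gene that restrains calcium channels, averaged 11.02 ± 1.33 CPM with Snai1 and 16.9 ± 0.573 CPM with Prrx1 (log2 fold change −0.62 ± 0.104, adjusted p = 0.00360, and 0.0505 without the third Snai1 library). Csrnp2, a cysteine and serine rich nuclear protein gene, stood at 22.1, 25.1 and 25.9 CPM with Snai1, against 39.2, 43.0 and 44.4 CPM with Prrx1 and 22.6 ± 2.89 CPM in the controls (−0.79 ± 0.0770, adjusted p = 6.03e-06).

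Among better expressed genes the differences were moderate. Washc2, a subunit of the WASH complex that builds actin on endosomes, stood at 136.3, 130.3 and 130.2 CPM with Snai1, against 178.4, 186.4 and 211.9 CPM with Prrx1 and 147.3 ± 7.64 CPM with the control plasmid. This was 1.45-fold lower with Snai1 (log2 fold change −0.54 ± 0.0554, adjusted p = 1.71e-05). Fgfr1op, a centrosomal protein gene, averaged 44.0 ± 2.05 CPM with Snai1 and 61.4 ± 5.08 CPM with Prrx1 (−0.48 ± 0.0660, adjusted p = 5.05e-04). Serac1, a lipid remodelling gene, had a log2 fold change of −0.52 (adjusted p = 0.00751, and 0.0707 without the third Snai1 library), and Epg5, an autophagy gene, one of −0.39 (adjusted p = 0.0490) and was lost in every fit that left out a library. Herpud1, a gene for the degradation of misfolded proteins at the endoplasmic reticulum, averaged 52.4 ± 1.28 CPM with Snai1, 68.4 ± 3.52 CPM with Prrx1 and 62.8 ± 4.96 CPM with the control plasmid (−0.38 ± 0.0560, adjusted p = 8.22e-04). It was the 1 called gene of 33 tested for the unfolded protein and integrated stress responses, where 0.577% of all tested genes were called.

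Aloxe3, a lipoxygenase of the epidermis, differed from most of these in its controls. It had 9, 14 and 13 counts with Snai1, against 56, 55 and 76 with Prrx1 and 39, 34 and 38 with the control plasmid, so all 3 groups stood apart (log2 fold change −2.34 ± 0.306, adjusted p = 2.87e-04). Arc and Washc2 shared this order. For 12 of the 54 lower genes all 3 controls lay above all 3 Snai1 libraries (10.3% of all tested genes).

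**Figure D4:**
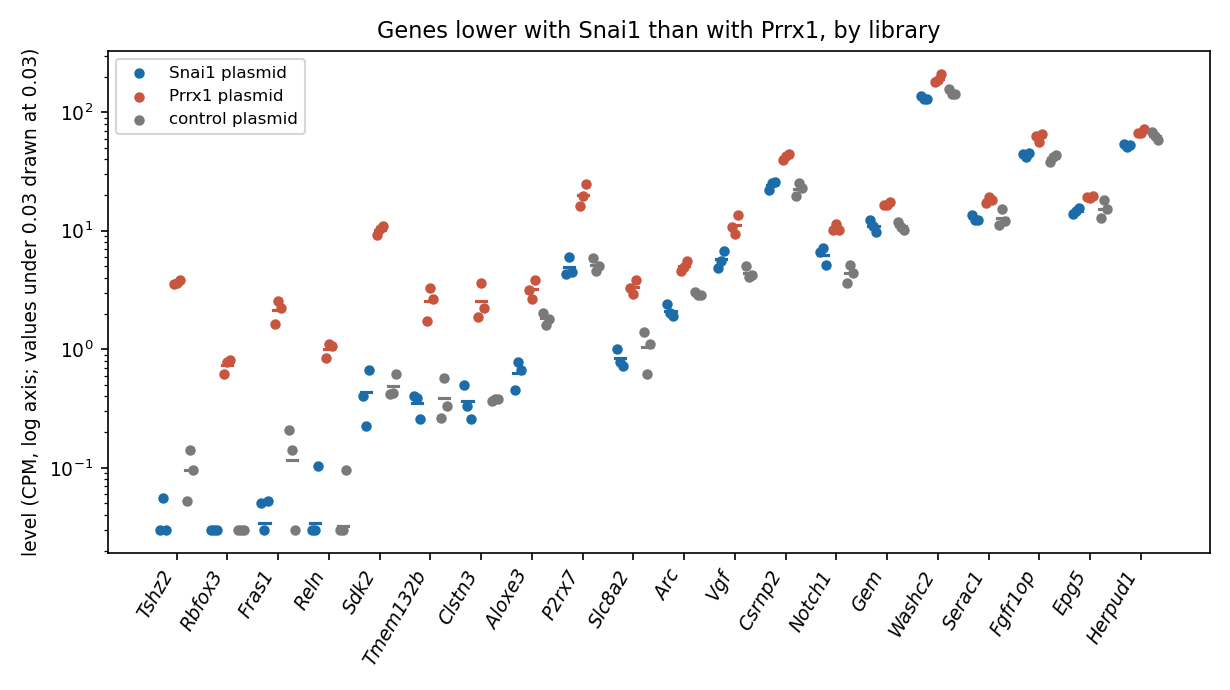
Levels (CPM, log axis, with values under 0.03 drawn at 0.03) of 20 genes called lower with Snai1, by library, with Prrx1 itself left out. Points are libraries and bars group means. For most genes the Snai1 and control libraries lie together below the Prrx1 libraries, and in Aloxe3, Arc and Washc2 the controls lie between.

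The gene programmes best known for these factors gave few or no calls. Of all tested genes only 0.577% were called, so 0 calls in a short list, here and below, do not set it apart from other genes. Of 19 listed EMT transcription factors, 17 were tested, and Snai1 and Prrx1 were the only called ones. The relative Snai2 averaged 14.7 ± 1.45 CPM with Snai1 and 12.5 ± 0.761 CPM with Prrx1 (log2 fold change 0.23, adjusted p = 0.400). The log2 fold changes of the other classical members lay close to 0, at 0.037 for Zeb1, 0.025 for Zeb2, 0.061 for Twist1 and 0.016 for Twist2. Prrx2, the paralogue of Prrx1, averaged 28.0 CPM with Snai1 and 27.6 CPM with Prrx1 (0.024, adjusted p = 0.947).

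Of 25 tested mesenchymal genes, edgeR called 0, with 4 higher and 0 lower before adjustment, at p under 0.05, where 11.3% of all tested genes lie in either direction. DESeq2 and limma called 0 as well. The median log2 fold change of the 25 genes was 0.101, with a range of −0.045 to 0.23. Of all 12824 tested genes, 749 were higher and 702 lower at p under 0.05 before adjustment. These are the background for such counts here and below. Sparc, a matrix glycoprotein gene, averaged 410.3 CPM with Snai1 and 367.4 CPM with Prrx1 (0.16, adjusted p = 0.154), with no overlap between the groups. Vim had a log2 fold change of 0.046, Cdh2, the N-cadherin gene, −0.008, and Fn1, the fibronectin gene, 0.117. Extracellular matrix genes gave 0 of 36 called by edgeR (5 higher and 0 lower before adjustment, at p under 0.05) and a median of 0.092. DESeq2 called 1 of them higher and limma 0. Loxl1, a collagen cross-linking enzyme gene, came closest in edgeR, at 156.3 ± 3.44 CPM with Snai1 and 136.6 ± 5.81 CPM with Prrx1 (0.20 ± 0.0459, adjusted p = 0.0600).

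Of 36 epithelial genes, 27 were under 1 TPM in all 9 libraries and 9 passed the filter. edgeR, DESeq2 and limma called 0 of the 9, and 0 had an unadjusted p under 0.05. Their summed level was 104.8 to 117.6 TPM with Snai1, 108.8 to 113.6 TPM with Prrx1 and 97.9 to 125.0 TPM with the control plasmid. Cdh1, the textbook target of Snai1, had 0, 0.05 and 0 TPM with Snai1, against 0.016 to 0.276 TPM with Prrx1 and 0.022, 0 and 0.016 TPM in the controls, and it did not reach the filter. Transcription factors of limb and craniofacial mesenchyme, the home tissues of Prrx1, gave 0 calls of 22 tested by edgeR, DESeq2 and limma (1 higher and 3 lower before adjustment, at p under 0.05, median −0.026). Shox2, a limb homeobox gene, averaged 27.2 CPM with Snai1 and 32.4 CPM with Prrx1 (−0.25, adjusted p = 0.259).

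The Hedgehog pathway, the subject of the study, gave no call between the plasmids, where 0.577% of all tested genes were called. Gli1, a target and effector of the pathway, averaged 6.46 ± 2.17 CPM with Snai1, 6.53 ± 1.08 CPM with Prrx1 and 6.07 ± 0.620 CPM with the control plasmid (log2 fold change −0.02 ± 0.210, adjusted p = 0.983). Ptch1, the receptor and a target, averaged 24.0 ± 0.415 CPM with Snai1 and 25.1 ± 3.05 CPM with Prrx1 (−0.06 ± 0.0868, adjusted p = 0.849). Gli2 and Gli3, the main effectors, had log2 fold changes of −0.06 ± 0.0856 and 0.08 ± 0.0769, and Smo, the signal transducer, one of 0.10 ± 0.0474. The groups overlapped for Gli1, Gli2, Gli3, Ptch1 and Smo, and Hhip did not pass the filter. edgeR, DESeq2 and limma called 0 of 8 tested target genes (2 higher and 0 lower before adjustment, at p under 0.05) and 0 of 27 tested components (6 higher and 1 lower). The coreceptor gene Gas1 averaged 119.0 CPM with Snai1 and 103.1 CPM with Prrx1 (0.21, adjusted p = 0.131).

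Genes of the TGF-beta and BMP pathways, known inducers of EMT, gave 0 calls of 26 tested by edgeR, DESeq2 and limma (5 higher and 2 lower before adjustment, at p under 0.05, median 0.073). Smad7, the inhibitory Smad, averaged 70.6 CPM with Snai1, 61.4 CPM with Prrx1 and 50.9 CPM with the control plasmid (0.20 ± 0.0533, adjusted p = 0.114). The BMP targets Id1, Id2 and Id3 had log2 fold changes of 0.10, −0.29 and −0.37 and overlapping groups. Id4, of the same family, had 0.403, 0.556 and 0.413 CPM with Snai1, against 1.18, 1.26 and 0.863 CPM with Prrx1 and 0.731, 0.617 and 0.813 CPM in the controls. Its groups stood apart, and it had the largest difference of the list, but did not pass (−1.26 ± 0.390, adjusted p = 0.187).

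Mitochondrially encoded genes overlapped between the plasmids, and both groups lay below the controls. They took 1.28, 1.35 and 1.06% of counts in the Snai1 libraries, against 1.07, 1.48 and 1.14% in the Prrx1 libraries and 2.45, 2.03 and 2.07% in the controls. edgeR, DESeq2 and limma called 0 of the 13 between Snai1 and Prrx1 (0 higher and 1 lower before adjustment, at p under 0.05, median 0.011). mt-Nd1, a complex I subunit gene with fully unique 31-mers, averaged 1477 ± 163 CPM with Snai1, 1450 ± 164 CPM with Prrx1 and 2718 ± 341 CPM with the control plasmid. The difference from the controls was not tested here.

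**Figure D5:**
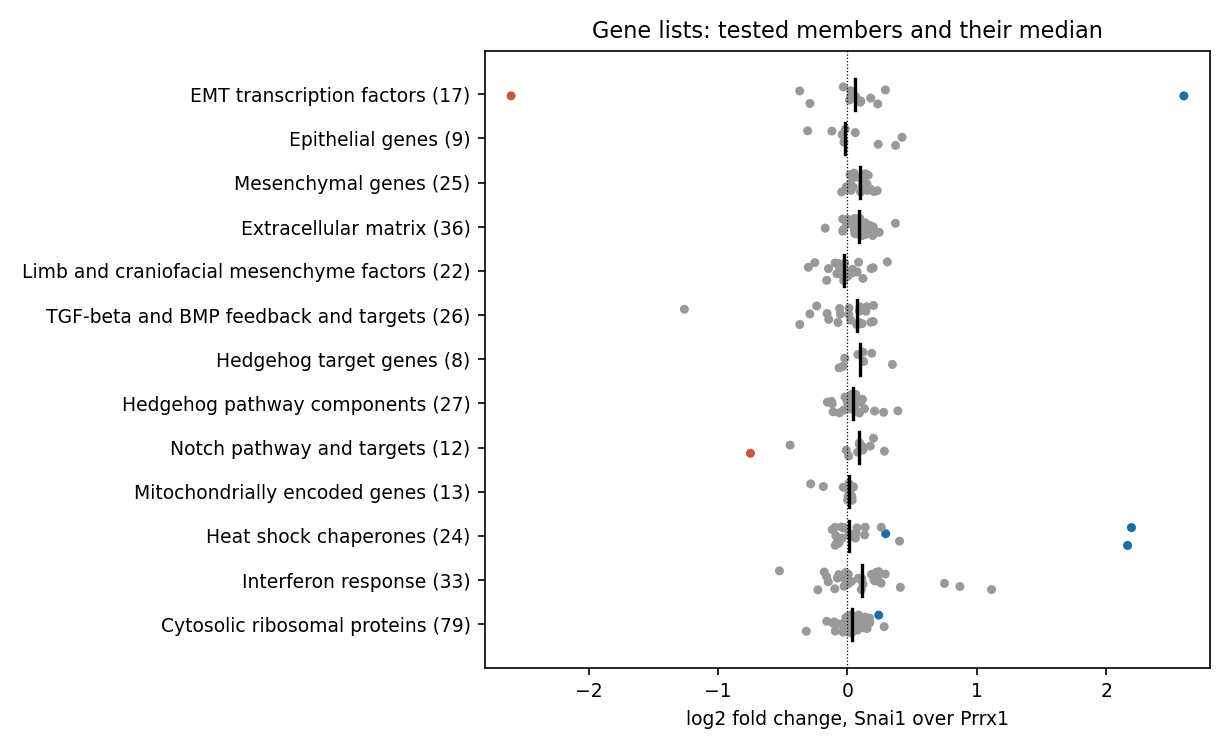
Log2 fold changes, Snai1 over Prrx1, of the tested members of 13 gene lists, with the number tested in brackets. Grey points did not pass, blue points were called higher and red points lower with Snai1, and black bars are medians. Snai1 and Prrx1 lie beyond the axis and are drawn at its edges, and most lists sit in a narrow band around 0.

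Interferon response genes gave no call. Of 33 tested, edgeR, DESeq2 and limma called 0. Before adjustment, at p under 0.05, 8 were higher and 0 lower, against 749 higher and 702 lower of all 12824 tested genes. The median was 0.109, against 0.002 for all genes. Oasl2, an antiviral gene, averaged 5.23 CPM with Snai1, 3.09 CPM with Prrx1 and 3.26 CPM with the control plasmid (log2 fold change 0.75 ± 0.235, adjusted p = 0.201). Irf9, a subunit of the interferon-activated complex, averaged 11.1 CPM with Snai1 and 8.36 CPM with Prrx1 (0.41 ± 0.119, adjusted p = 0.152). Cytosolic ribosomal protein genes had 1 call of 79 (Rpl39), where 0.577% of all tested genes were called. They had 21 higher and 2 lower before adjustment, at p under 0.05, and a median of 0.039. DESeq2 called 3 of them higher and limma 0. They took 4.86, 4.96 and 4.87% of counts with Snai1, against 4.84, 4.82 and 4.57% with Prrx1 and 5.21, 4.30 and 4.47% with the control plasmid.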

How the data were processed

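Per the submitters' processing notes, the authors used kallisto 0.43.0 and mm10. Which annotation release they used is not given in the sources used here. The deposited tables hold estimated counts, not normalized, and the authors' TPM values, scaled per length and library, for 118491 targets a library. With GENCODE M21, 116816 targets matched a transcript and 1673 (0.643 to 0.668% of counts) did not and were not used. Estimated counts were summed per gene and rounded. Library totals are in the report and limit precision for genes with few counts.

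Snai1 and Prrx1 libraries (3 each) were fitted with edgeR 4.0.16 in R 4.3.3, using TMM scaling, filterByExpr (minimum count 10, minimum total 15), robust quasi-likelihood F tests and two-sided Benjamini-Hochberg adjustment over 12824 genes, with 0.05 as the threshold. Fold changes are Snai1 over Prrx1 with a prior count of 0.125, and SE comes from the F statistic. CPM are TMM-scaled over 9 libraries. Folds against 0 counts use a floor of 3 counts over the group. Uniqueness is the share of a gene's 31-mers found in no other gene. Genes under 90% are uncertain. Alternatives were DESeq2 1.42.0, limma 3.58.1 on log2(TPM + 1) where the mean TPM reached 1, other scalings and filters, controls in the fit, a replicate block and leaving out each library. In data simulated for this comparison with 200 changed genes, the fit recovered 80% at 1.5-fold, 86% at 2-fold and 98.7% at 4-fold over 3 draws. In counts, 120, 129, 148 and 149 changed genes were recovered at 1.5-, 2-, 4- and 8-fold, beside 49 false calls among 37375 unchanged genes. The false calls were a larger share of all calls than the 0.05 threshold. Changed genes were drawn at random from all tested genes, whose median level over the 6 libraries was 29.9 CPM. That of the lower genes was 2.46 CPM, and recovery of such scarce genes was not counted separately.

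Named genes were the delivered factors, Gli1, Gli2, Gli3, Ptch1, Smo and Hhip, up to 12 protein-coding genes each way with the largest change (called, at least 5 CPM in the higher group, groups apart, no predicted name), up to 5 called members of each of 32 lists, mitochondrially encoded genes and EMT factors. Other genes were named after their values were seen. The comparison and lists were chosen with earlier results of these data known.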

Additional observations from a re-analysis of the deposited data

How the results depend on the processing

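No called named value changed direction under the alternatives run, and calls for Snai1, Prrx1, Hspa1a, Hspa1b and Rbfox3 held in all that could test them. The count of 74 genes (20 higher, 54 lower) became 300 (124 higher, 176 lower) with no filter on low counts and 28 (8 higher, 20 lower) with at least 5 CPM in 3 libraries. It was 33 (4 higher, 29 lower) with the controls in the fit (88, with 27 higher and 61 lower, when control library 1, which stands apart, was left out, a check added after seeing the data), 5 (3 higher, 2 lower) with limma on log2(TPM + 1), and 33 genes were higher with DESeq2. Leaving out 1 library gave 44 to 99 genes, with 5 to 32 higher and 39 to 67 lower, and the lowest came without Snai1 replicate 3. Scaling with DESeq2's size factors (79), the upper quartile (76) or totals without the delivered genes (72) stayed close to the count above. Under limma, 4 of the 74 main calls were kept and most of the named calls were lost. Those lost included Sdk2 (adjusted p = 0.149), P2rx7 (0.156), Csrnp2 (0.120) and Washc2 (0.630). The cause was not tested. A fit with the replicate number as a block called 145 genes (60 higher, 85 lower). Same-numbered libraries had correlations of deviations of 0.031, 0.089 and 0.047, none over 0.1, and each library correlated best with its own number, which is a hint from the data and not from the design. Libraries of this depth hold few counts for genes under 1 CPM, so differences there rest on few reads, and intervals cover counting error only.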

Other observations

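Some large fitted differences failed the test in genes with no unique sequence. Rps13-ps2, a ribosomal protein pseudogene with 0% unique 31-mers, stood at 17.1, 0.668 and 15.5 CPM with Snai1, against 0, 2.08 and 0 CPM with Prrx1 and 35.2, 39.1 and 42.6 CPM in the controls (log2 fold change 3.92, adjusted p = 0.501). Gm10925, with 0% unique 31-mers, stood at 18.0, 31.9 and 2.74 CPM with Snai1, against 38.5, 60.5 and 81.7 CPM with Prrx1 and 192 to 265 CPM in the controls (−1.80, adjusted p = 0.512). For both genes all 3 controls lay above every Snai1 and Prrx1 library.

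Some scarce protein-coding genes with unique sequence came close to the threshold on the Prrx1 side. Scn4a, a muscle sodium channel gene, averaged 0.142 CPM with Snai1 and 0.759 CPM with Prrx1 (log2 fold change −2.38 ± 0.558, adjusted p = 0.0590). Atf3, a stress-induced leucine zipper factor, averaged 0.998 CPM with Snai1, 2.27 CPM with Prrx1 and 1.53 CPM with the control plasmid (−1.18 ± 0.289, adjusted p = 0.0798). H2afx, the histone of DNA damage signalling, was the nearest on the Snai1 side among replication-independent histones, at 62.1 CPM with Snai1 and 52.4 CPM with Prrx1 (0.25 ± 0.0598, adjusted p = 0.0740).

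The called genes also differ in make-up. The longest transcript of the lower genes had a median of 4116 bases and that of the higher genes 2658 bases, against 3398 bases for all tested genes, and these are descriptions without a test. Of the 74 called genes, 11 lie on chromosome 11, all lower with Snai1, where 8.06% of tested genes lie. Chromosome 11 is named for its count and does not stand alone. Chromosome 17 held 8 (5.15% of tested genes), chromosome 5 held 8, all lower (6.29%), and chromosome 2 held 8 (8.1%). Chromosomes 3, 9 and 13 held 0 (4.8%, 5.48% and 3.7%).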
